A study of Sus scrofa with 8 samples.

Results

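Solute carriers are the membrane proteins that move sugars, amino acids, lactate, nucleotides and ions into cells and between their compartments, and their genes carry symbols that begin with SLC and a family number. The members were the genes of the array with exactly 1 symbol in GEO's platform annotation whose symbol is SLC followed by a number, each read from whichever of its probe sets had the highest mean log2(signal + 32). There were 120 such genes, measured by 176 probe sets, among 6765 genes with 1 symbol. They included 21 mitochondrial carriers (SLC25), 7 glucose carriers (SLC2), 2 monocarboxylate carriers (SLC16) and 17 amino acid carriers. A further 3 of the 120, SLC2A4RG, SLC9A3R1 and SLC9A3R2, carry a carrier's symbol but encode a regulator or scaffold and are not carriers themselves.

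The stated aim was to compare muscle gene expression between 2 pig breeds. Total RNA of the longissimus dorsi, the long muscle along the back, was hybridised to 8 single-colour arrays, 4 for the Korean native pig at an age of 7 months and 4 for the Yorkshire at 6 months. The labels number the arrays of a breed as biological replicates 1 to 4 and state that all animals were raised under the same conditions, and no treatment or genetic modification is named. Breed and age differ between the groups and cannot be told apart.

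In muscle, glucose enters fibres through SLC2A4, which insulin and contraction bring to the surface, and lactate leaves through monocarboxylate carriers that need the chaperone basigin (BSG) to reach the membrane. The mitochondrial carriers of the SLC25 family exchange ADP for ATP and import phosphate, fatty acyl groups and metabolites across the inner mitochondrial membrane. Amino acid carriers supply protein synthesis, and some feed the sensing of amino acids at the lysosome. Creatine, which buffers ATP during contraction, is taken up through SLC6A8.

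The deposited signals had been scaled so that each array had the same trimmed mean, and all changes are therefore relative to the other probe sets of an array. Changes are given as Korean native pig minus Yorkshire on the log2(signal + 32) scale, where the changes of dim probe sets come out too small, with a standard error (SE) from limma over 4 arrays per breed. Of the 120 members, 83 passed the filter on dim probe sets and 37 did not. That is 69.2% of the members, against 78.8% of all genes with 1 symbol. Of the 83 tested, 50 exceeded a signal of 91.5, the 95th percentile of the negative control probe sets, on every array, and 33 fell below it on at least 1 array. The hybridisation controls were bright on replicates 1 and 3 of both breeds (13.42 to 13.70, log2) and dim on replicates 2 and 4 (12.50 to 12.81). The log2 ratio of 3' to 5' signal of the housekeeping controls was 3.01 on Korean native pig 1 and 2.75 on Yorkshire 3, against 0.85 to 1.51 on the other arrays. Neither measure differed between breeds beyond its spread (exact permutation p = 0.714 and 0.943, two-sided, where the smallest possible is 0.0286).

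No solute carrier differed between the breeds at the adjusted threshold. Of the 83 tested members, 0 passed an adjusted p of 0.05 in limma, with adjusted p between 0.999 and 1.00, and 0% of the 5331 genes tested passed. At an unadjusted p under 0.05 there was 1 member, the mitochondrial carrier SLC25A36, which is 1.20% of the members against 3.43% of all genes tested. The breeds did not overlap for 2 members, the neutral amino acid carrier SLC1A4 and the acetyl-CoA carrier SLC33A1, which is 2.41% of the members against 2.25% of all genes. Both shares were near or below those of all genes. In a piece of muscle, fewer cells of a type and less RNA per cell cannot be told apart, so none of these values is a level per cell.

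The changes of the members leaned below 0. They ran from -0.90 for SLC22A3, an organic cation carrier, to 0.77 for SLC1A4, and 0 of 83 exceeded 1 in size, against 44 of 5331 genes (0.825%). For 49 of the 83 members the change was smaller than its SE, against 3682 of the 5331 genes tested. The median size of a change was 0.24 for the members and 0.17 for all genes tested. The change was below 0 for 51 members (61.4%), against 50.4% of all genes tested, and the median was -0.10, against -0.00 for all genes. The count below 0 was 44 (53.0%, against 47.5% of all genes) on the arrays with bright hybridisation controls alone and 61 (73.5%, against 54.8% of all genes) on the dim arrays alone. Centring each array on its median signal adds the same amount to every gene, and it left 53.0% of the members and 38.6% of all genes below 0. Of the 83 members, 50 lay below the median of all genes, a count that this centring cannot change. Without the 3 genes that are not carriers, 49 of 80 were below 0. Of the 7 skeletal muscle fibre markers tested, 7 were also below 0, with a median of -0.30, and their summed signal was 328849 to 530188 in Korean native pigs and 453164 to 635454 in Yorkshires. On the bright arrays alone the changes of these markers ran from -0.47 for MYH2 to 0.12 for TNNT1, with MYH7 also above 0 at 0.02. On the dim arrays alone they ran from -0.72 for TNNT1 to -0.45 for NEB. The part of these markers in the lean of the carriers was not tested.

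**Figure D1:**
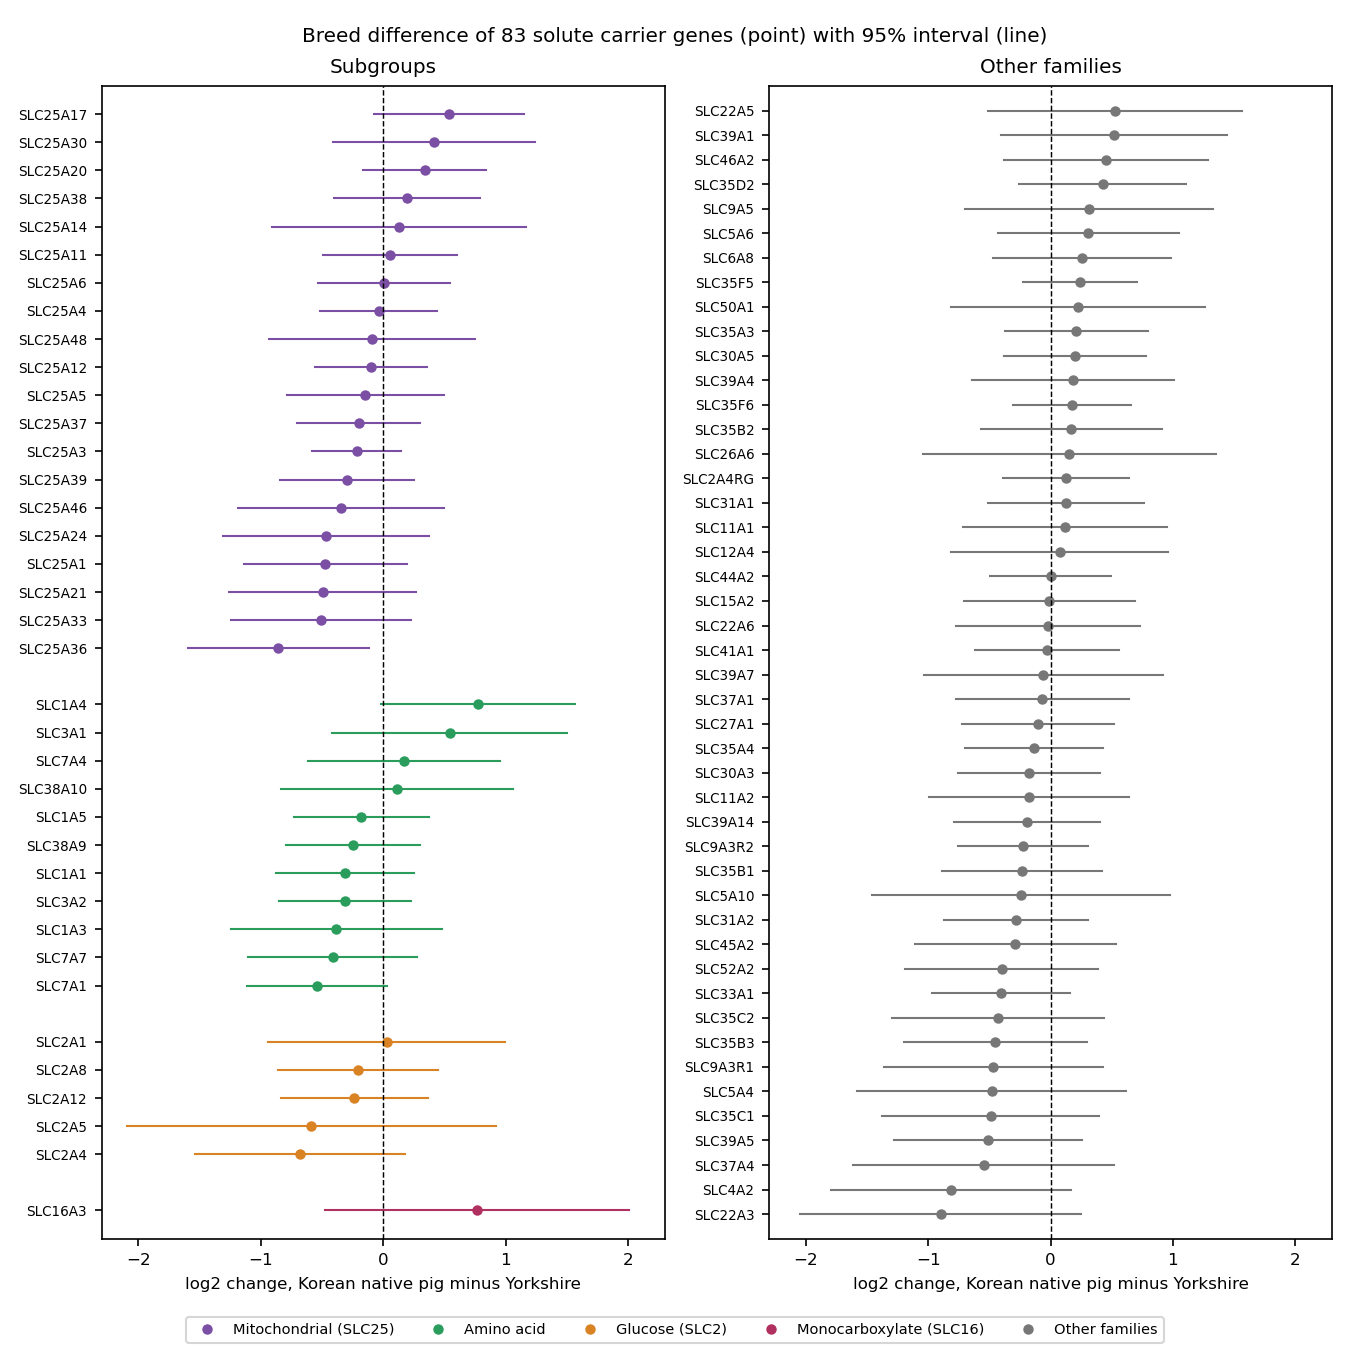
Log2 change of each of the 83 tested solute carrier genes, Korean native pig minus Yorkshire (points), with its 95% confidence interval from limma (lines), by subgroup on the left and for the other families on the right. Of the 83 intervals, that of SLC25A36 alone excludes 0, and no adjusted p was under 0.05.

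The ADP/ATP carriers and the phosphate carrier, which together supply the substrates of ATP synthase, overlapped between the breeds. SLC25A4, the ADP/ATP carrier of heart and skeletal muscle, had signals of 31299, 28810, 38122 and 20675 in Korean native pigs and 27829, 24775, 39430 and 29086 in Yorkshires. The lowest array was a Korean native pig and the highest a Yorkshire, and the breeds overlapped over most of their range. The log2 change was -0.04 (SE 0.22, 95% interval -0.52 to 0.44). The other ADP/ATP carriers, SLC25A5 and SLC25A6, stood at -0.15 (SE 0.29) and 0.0049 (SE 0.25). The phosphate carrier SLC25A3 had signals of 22764, 23457, 21873 and 19203 in Korean native pigs and 21363, 28811, 24867 and 26871 in Yorkshires. Of the Yorkshire arrays, 3 lay above every Korean native pig array and 1 lay among them. The change was -0.22 (SE 0.16, 95% interval -0.58 to 0.14), and a dimmer probe set of the same gene gave 0.09 (SE 0.51). SLC25A3 had the narrowest range over the 8 arrays of the 83 tested members, 0.58 on the log2 scale.

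Among the carriers of the malate-aspartate shuttle, which passes reducing equivalents from the cytosol to mitochondria, the oxoglutarate carrier SLC25A11 stood at 0.06 (SE 0.25) and the aspartate-glutamate carrier SLC25A12 at -0.10 (SE 0.21). SLC25A20, which brings acylcarnitines into mitochondria for beta-oxidation, had signals of 989.0, 1399.5, 1947 and 1158 in Korean native pigs and 893.3, 983.2, 1057 and 1281 in Yorkshires. The Korean native pig arrays reached higher, but the breeds overlapped between 989.0 and 1281. Its change was 0.34 (SE 0.23, 95% interval -0.16 to 0.84) and 0.16 without Korean native pig 3, the highest array.

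SLC25A36, which carries pyrimidine nucleotides into mitochondria, had signals of 85.7, 70.2, 245.7 and 151.5 in Korean native pigs and 247.3, 299.2, 200.03 and 275.8 in Yorkshires. Of the Korean native pig arrays, 3 lay below every Yorkshire array, and Korean native pig 3 lay among them. The means were 138.3 ± 79.8 and 255.6 ± 42.7 (SD, n = 4 each). The change was -0.86 (SE 0.34, 95% interval -1.60 to -0.12), with an adjusted p of 0.999 in limma. It stayed between -1.13 and -0.65 when 1 array was left out, and it was -0.49 on the bright arrays and -1.22 on the dim arrays. SLC25A33, the other pyrimidine nucleotide carrier measured, stood at -0.51 (SE 0.34), and its breeds overlapped, with 116.7 to 372.3 in Korean native pigs and 202.0 to 386.4 in Yorkshires. Leaving out Korean native pig 2 gave a change of -0.30, and leaving out Korean native pig 4 gave -0.78.

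The citrate carrier SLC25A1, which exports the carbon for fatty acid synthesis, stood at -0.47 (SE 0.31). This rested on Yorkshire 4, at 1193 against 379.9 to 678.3 on the other 7 arrays, and without it the change was -0.18. SLC25A17, the family's carrier of the peroxisomal membrane, had signals of 345.2, 566.2, 312.9 and 551.2 in Korean native pigs and 214.5, 230.8, 435.3 and 306.4 in Yorkshires. Yorkshire 3 lay above 2 Korean native pig arrays, and the other Yorkshire arrays lay below all 4. Its change of 0.54 (SE 0.28) was 0.09 on the bright arrays and 0.99 on the dim arrays. Of 20 tested mitochondrial carriers of 21 on the array, 13 were below 0 and 7 above, with a median of -0.12 and a range of -0.86 to 0.54, and 0 passed the adjusted threshold.

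**Figure D2:**
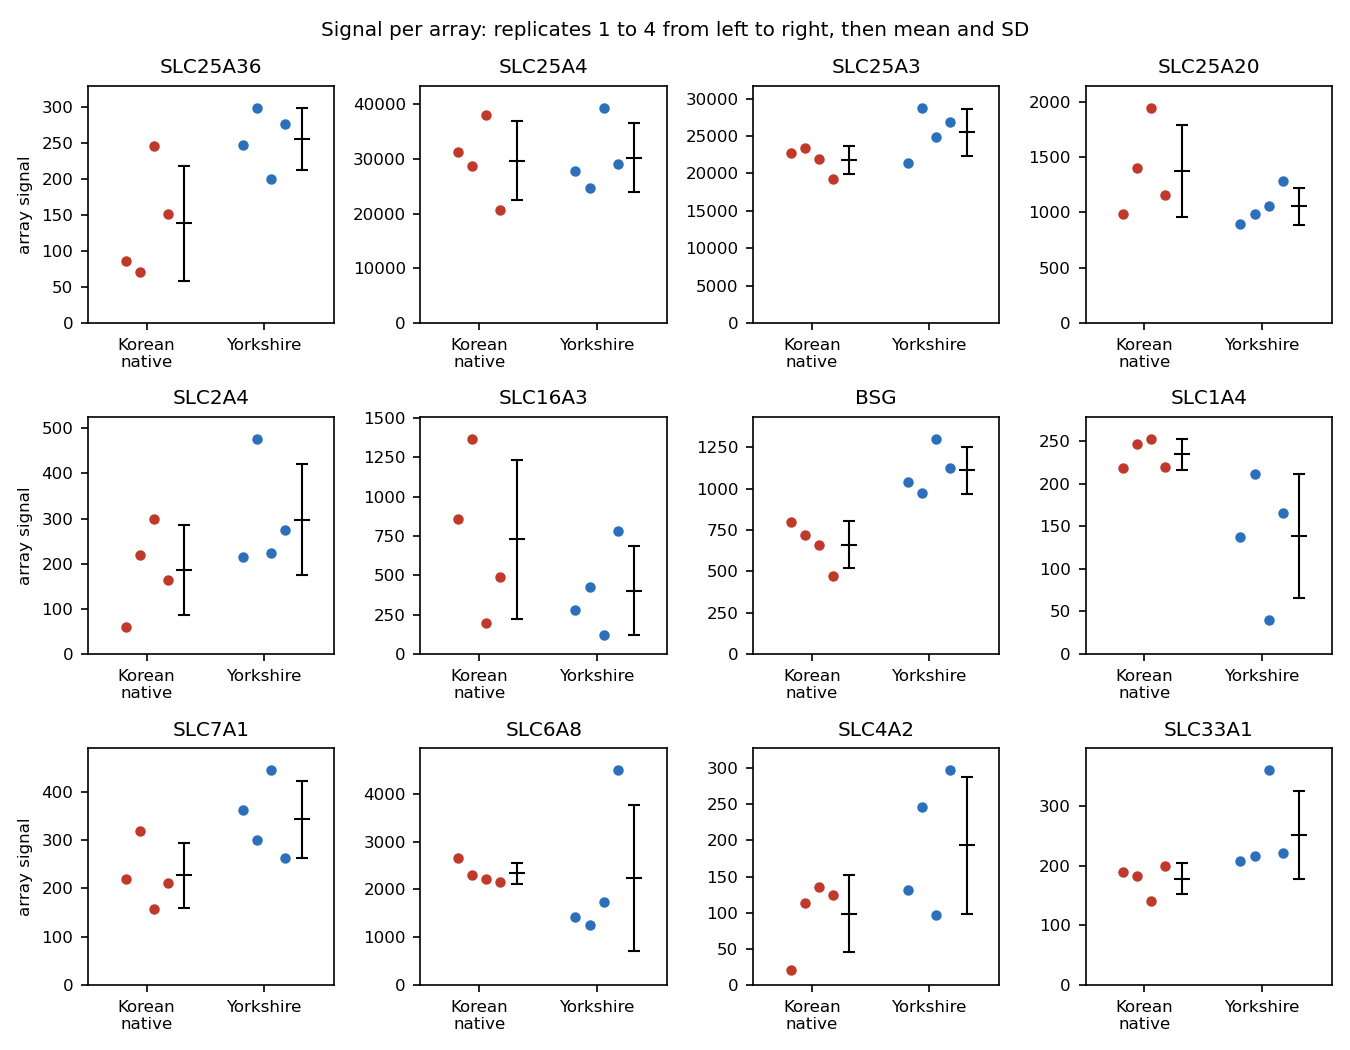
Signal on each array (points, replicates 1 to 4 from left to right) in Korean native pigs and Yorkshire pigs, with the mean and SD (bars), for 11 solute carriers and BSG, each on its own linear axis from 0. The breeds do not overlap for BSG, SLC1A4 and SLC33A1, and all other genes shown overlap.

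The pores and gates that neighbour these carriers did not pass the test either. Of 9 tested genes of a list of mitochondrial gates and uncoupling proteins, 7 were below 0 and 2 above, with a median of -0.05 and no adjusted p under 0.05. The outer membrane channels VDAC1 and VDAC2 stood at -0.19 (SE 0.18) and -0.10 (SE 0.19). With 1 array left out VDAC1 ranged from -0.30 without Yorkshire 2 to -0.10 without Yorkshire 3, and VDAC2 from -0.25 without Korean native pig 2 to -0.03 without Korean native pig 4. The pyruvate carrier subunits MPC1 and MPC2 stood at -0.04 (SE 0.18) and -0.06 (SE 0.16).

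Glucose carriers leaned below 0 without any passing the test. SLC2A4, the insulin-responsive glucose carrier of muscle and fat, had signals of 60.9, 218.8, 298.6 and 163.8 in Korean native pigs and 216.0, 477.4, 223.9 and 273.9 in Yorkshires. Korean native pigs 1 and 4 lay below every Yorkshire array, and Korean native pigs 2 and 3 lay among them. The means were 185.5 ± 99.8 and 297.8 ± 122.4 (SD, n = 4 each). The change was -0.68 (SE 0.39, 95% interval -1.53 to 0.18; adjusted p = 0.999 in limma). It was -0.45 without Yorkshire 2 and -0.32 without Korean native pig 1, which was also an array of high 3' to 5' ratio and the only one on which SLC2A4 fell below 91.5. A second tested probe set of SLC2A4 gave -0.49 (SE 0.33). Adipocytes also use SLC2A4, and 5 of their 6 tested markers were below 0, with a median of -0.55. CFD alone lay above 0, at 0.70 (SE 0.35), and 3 of the 6 markers exceeded 91.5 on every array. The summed signal of the adipocyte markers was 5339 to 11606 in Korean native pigs and 6926 to 13720 in Yorkshires. Their part in the change of SLC2A4 was not tested.

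SLC2A12, a further insulin-sensitive glucose carrier, stood at -0.24 (SE 0.28). Leaving out Korean native pig 2 gave -0.04 and leaving out Yorkshire 2 gave -0.09, whereas it was -0.40 without Yorkshire 3 and -0.36 if Korean native pig 1 was left out. The fructose carrier SLC2A5 had the widest range of the 83 tested members. Its signals were 220.8, 13.6, 110.5 and 92.2 in Korean native pigs and 165.4, 161.0, 530.2 and 16.5 in Yorkshires, a range of 3.62 on the log2 scale, with high and low arrays in both breeds. Its change of -0.59 (SE 0.69) was -0.04 without Yorkshire 3 and -0.12 without Korean native pig 2, but -1.22 without Yorkshire 4 and -0.95 without Korean native pig 1. SLC2A1, the carrier of basal glucose uptake, fell below 91.5 on 5 of 8 arrays and stood at 0.03 (SE 0.44). Of 5 tested glucose carriers of 7, 4 were below 0, with a median of -0.24, but for 4 of the 5 the change was smaller than its SE. SLC2A3, known from neurons and blood cells, was too dim to test, with signals of 12.8 to 353.4 in Korean native pigs and 7.21 to 150.04 in Yorkshires.

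The machinery that moves SLC2A4 to the surface did not share one direction. Of 10 tested genes of insulin signalling and vesicle fusion, 5 were above 0 and 5 below, with a median of -0.03. The vesicle protein VAMP2 stood at 0.38 (SE 0.22). RAB10, a small GTPase of SLC2A4 vesicles, stood at -0.22 (SE 0.16), or -0.08 with the mean of its probe sets. The breeds did not overlap on the probe set used, with 6227 to 7672 in Korean native pigs and 7810 to 9072 in Yorkshires. The adjusted p of RAB10 was 0.999 in limma.

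The lactate carrier SLC16A3 and its chaperone BSG stood on opposite sides of 0, and neither passed the adjusted threshold. SLC16A3, the carrier that exports lactate from glycolytic fibres, had signals of 861.1, 1370 (Korean native pig 2, the highest), 195.2 and 492.6 in Korean native pigs and 280.2, 426.1, 119.5 and 785.6 in Yorkshires. The breeds overlapped widely. The change was 0.77 (SE 0.57, 95% interval -0.47 to 2.01), and it was 0.35 without Yorkshire 3 and 0.38 without Korean native pig 2, but 1.16 without Yorkshire 4 and 1.25 when Korean native pig 3 was left out. It was 0.17 with Korean native pig 1 and Yorkshire 3 both left out, the arrays of high 3' to 5' ratio.

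BSG, the chaperone of the lactate carriers, had signals of 795.7, 722.3, 658.6 and 469.9 in Korean native pigs and 1043, 973.0, 1303 and 1125 in Yorkshires. Every Korean native pig array lay below every Yorkshire array. The means were 661.6 ± 139.6 and 1111 ± 142.1 (SD, n = 4 each), and the change was -0.74 (SE 0.21, 95% interval -1.19 to -0.28). It lay between -0.83 and -0.59 when 1 array was left out, and was -0.66 on the bright arrays and -0.81 on the dim arrays. BSG was 1 of the 183 genes at an unadjusted p under 0.05, but its adjusted p was 0.999 in limma, and it was measured by 1 probe set. The difference between the changes of BSG and SLC16A3 was not tested.

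All 5 tested genes of lactate and proton handling were below 0, with a median of -0.22, and 0 passed the adjusted threshold. LDHA, the lactate dehydrogenase subunit of glycolytic muscle, stood at -0.41 (SE 0.19), CA3, the carbonic anhydrase of muscle, at -0.19 (SE 0.17), and EMB, a further chaperone of monocarboxylate carriers, at -0.22 (SE 0.36). Of the monocarboxylate carriers on the array, SLC16A13 was too dim to test.

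Amino acid carriers differed in direction from gene to gene. SLC1A4, a sodium-dependent carrier of alanine, serine and cysteine, had signals of 218.5, 246.9, 252.9 and 219.1 in Korean native pigs and 137.2, 211.8, 40.0 and 165.3 in Yorkshires. Every Korean native pig array lay above every Yorkshire array, the nearest being 218.5 and 211.8, and Yorkshire 3 was far below the rest. The means were 234.4 ± 18.1 and 138.6 ± 72.6 (SD, n = 4 each). The change was 0.77 (SE 0.36, 95% interval -0.02 to 1.57; adjusted p = 0.999 in limma). It was 0.40 without Yorkshire 3, an array of high 3' to 5' ratio, and it was 1.27 on the bright arrays and 0.27 on the dim arrays.

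SLC7A1, the main carrier of arginine and lysine, had signals of 220.7, 318.8, 157.7 and 211.7 in Korean native pigs and 361.8, 300.9, 446.4 and 262.9 in Yorkshires. Korean native pig 2 alone lay among the Yorkshire arrays, and the other 3 lay below them. Its change of -0.54 (SE 0.26, 95% interval -1.11 to 0.03) was -0.99 on the bright arrays and -0.10 on the dim arrays. SLC3A2, the heavy chain that brings light chains such as SLC7A5 and SLC7A7 to the membrane, stood at -0.31 (SE 0.25), with -0.16 without Yorkshire 4 and -0.48 without Yorkshire 3. SLC7A7 stood at -0.41 (SE 0.32), while its second probe set gave 0.54 (SE 0.35). SLC3A1, a heavy chain known from kidney and gut, stood at 0.54 (SE 0.44), while its second probe set gave -0.06 (SE 0.30). Without Yorkshire 3 the change of SLC3A1 was 0.18, and without Korean native pig 1 it was 0.87. SLC7A7 and SLC3A1 therefore had no common direction over their probe sets. Of 11 tested amino acid carriers of 17, 7 were below 0, and the median was -0.25. Among these 7 were the glutamine carrier SLC1A5 at -0.18 (SE 0.25) and the lysosomal arginine sensor SLC38A9 at -0.25 (SE 0.25). A second tested probe set of SLC38A9 gave 0.06 (SE 0.27).

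Of 7 tested genes of amino acid sensing, 5 were below 0 and 2 above, with a median of -0.09. Asparagine synthetase, ASNS, which cells induce when amino acids run short, stood at 0.98 (SE 0.50, 95% interval -0.11 to 2.07). Its highest array, Korean native pig 2 at 12354, stood far from the other Korean native pigs at 2490 to 4428, and without that array the change was 0.49. SESN1, a leucine-sensing inhibitor of mTORC1, stood at 0.55 (SE 0.25), or 0.29 without Korean native pig 3. Both adjusted p were 0.999 in limma.

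SLC6A8, the creatine carrier, had signals of 2657, 2296, 2224 and 2157 in Korean native pigs and 1433, 1264, 1737 and 4505 in Yorkshires. The Korean native pig arrays lay close together and above 3 of the 4 Yorkshire arrays, and Yorkshire 4 lay above all other arrays. The change was 0.26 (SE 0.33, 95% interval -0.47 to 0.98) with all arrays, 0.65 without Yorkshire 4, 0.11 without Yorkshire 1 and 0.05 without Yorkshire 2. The carnitine carrier SLC22A5, which supplies the carnitine that SLC25A20 uses, stood at 0.53 (SE 0.47), with -0.55 on the bright arrays, 1.61 on the dim arrays, 0.11 without Yorkshire 4 and 0.90 without Yorkshire 3. Leaving out Korean native pig 4 gave 0.24. The fatty acid transport protein SLC27A1 stood at -0.10 (SE 0.28). The nucleoside carrier SLC29A1 was too dim to test.

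Among ion carriers, SLC4A2, an exchanger of chloride for bicarbonate, had signals of 20.9, 113.1, 136.1 and 125.0 in Korean native pigs and 131.1, 246.5, 96.7 and 298.1 in Yorkshires. Yorkshire 2 and 4 lay above all other arrays and Korean native pig 1 below them. The change was -0.81 (SE 0.45, 95% interval -1.80 to 0.17), and -0.42 without Korean native pig 1. Of 4 tested ion exchangers of 11, the other 3 were above 0, each by less than its SE. SLC9A5, 1 of these, stood at 0.31 (SE 0.47), while its second tested probe set gave -0.84 (SE 0.40). SLC8A1, the sodium-calcium exchanger best known from heart, was too dim to test, at 39.1 in Korean native pigs and 36.6 in Yorkshires on average. The sodium pump sets the gradient that many of these carriers use. Its subunits ATP1B1 and ATP1B3 stood at -0.42 (SE 0.25) and 0.13 (SE 0.29). ATP1B4, which was listed with them and carries a subunit's symbol but is not counted here as a pump subunit, stood at 0.47 (SE 0.43). ATP1B1 was -0.25 without Yorkshire 3, -0.64 without Korean native pig 3 and -0.12 with Korean native pig 1 and Yorkshire 3 both left out. ATP1B4 was 0.07 without Yorkshire 3 and 0.75 without Yorkshire 2.

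SLC33A1, which brings acetyl-CoA into the endoplasmic reticulum, had signals of 189.4, 183.9, 141.5 and 200.3 in Korean native pigs and 207.9, 216.7, 361.9 and 221.6 in Yorkshires. The breeds did not overlap, but their nearest arrays stood at 200.3 and 207.9, and Yorkshire 3 stood far above the rest. The change was -0.41 (SE 0.26, 95% interval -0.97 to 0.16; adjusted p = 0.999 in limma), and -0.24 without Yorkshire 3. Further tested probe sets of SLC33A1 gave -0.32 (SE 0.37) and 0.05 (SE 0.50). A probe set too dim to test, with means of 17.8 in Korean native pigs and 77.5 in Yorkshires, had breeds that did not overlap either.

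The largest change below 0 was that of SLC22A3, at 271.8, 66.6, 55.5 and 109.0 in Korean native pigs and 109.0, 116.2, 597.5 and 307.3 in Yorkshires. The spread within each breed was wide, and the change of -0.90 (SE 0.53) was -0.47 without Yorkshire 3. The zinc carrier SLC39A1 stood at 0.52 (SE 0.42), or 0.05 without Yorkshire 2, and its second probe set gave 0.08 (SE 0.27). SLC35D2, a nucleotide sugar carrier of the Golgi, stood at 0.43 (SE 0.31), or 0.14 without Yorkshire 4. SLC46A2 stood at 0.45 (SE 0.38), and leaving out Korean native pig 3 gave 0.23, whereas leaving out Korean native pig 2 gave 0.72. Of 12 tested carriers of metal ions, 7 were below 0, with a median of -0.04, and of 10 tested carriers of nucleosides and nucleotide sugars, 5 were below 0, with a median of 0.02.

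Of the 19 members with several tested probe sets, 8 had the same sign on all of them and 11 did not. The same share over all genes was not computed, so whether carriers differ from other genes in this cannot be said. The tested carriers were dimmer and more variable than the genes of the array at large. Their median signal was 254.2, against 564.0 for all genes tested, and their median SD within breeds was 0.51 on the log2 scale, against 0.36 for all genes. The median SE of a member's change was 0.34, so that its 95% interval reached 0.74 to each side.

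The carriers, like all genes of the array, often differed more with the brightness of the hybridisation controls than with breed. The mean on arrays with bright hybridisation controls differed from that on dim arrays by more than the breeds did for 47 of 83 members (56.6%, against 57.4% of all genes), with a median size of 0.30, against 0.24 for the breed change. This difference exceeded 1 in size for 4 members. It was 1.56 for SLC2A5, -1.21 for SLC16A3, -1.27 for SLC37A4, the glucose-6-phosphate carrier of the endoplasmic reticulum, and -1.32 for SLC26A6, an anion exchanger. SLC37A4 and SLC26A6 were chosen after their values were seen. SLC37A4 had signals of 4043 and 1980 on the dim arrays of Korean native pigs and 4458 and 2663 on those of Yorkshire pigs, against 1356, 667.4, 2397 (Yorkshire 1) and 1202 on the bright arrays. The dim arrays were the higher pair in each breed, and the change between breeds was -0.55 (SE 0.49), from -0.97 to -0.13 with 1 array left out, the latter without Korean native pig 3. A second tested probe set of SLC37A4 gave -0.06 (SE 0.44). SLC25A36 differed by 0.04 between bright and dim arrays and SLC7A1 by 0.03.

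**Figure D3:**
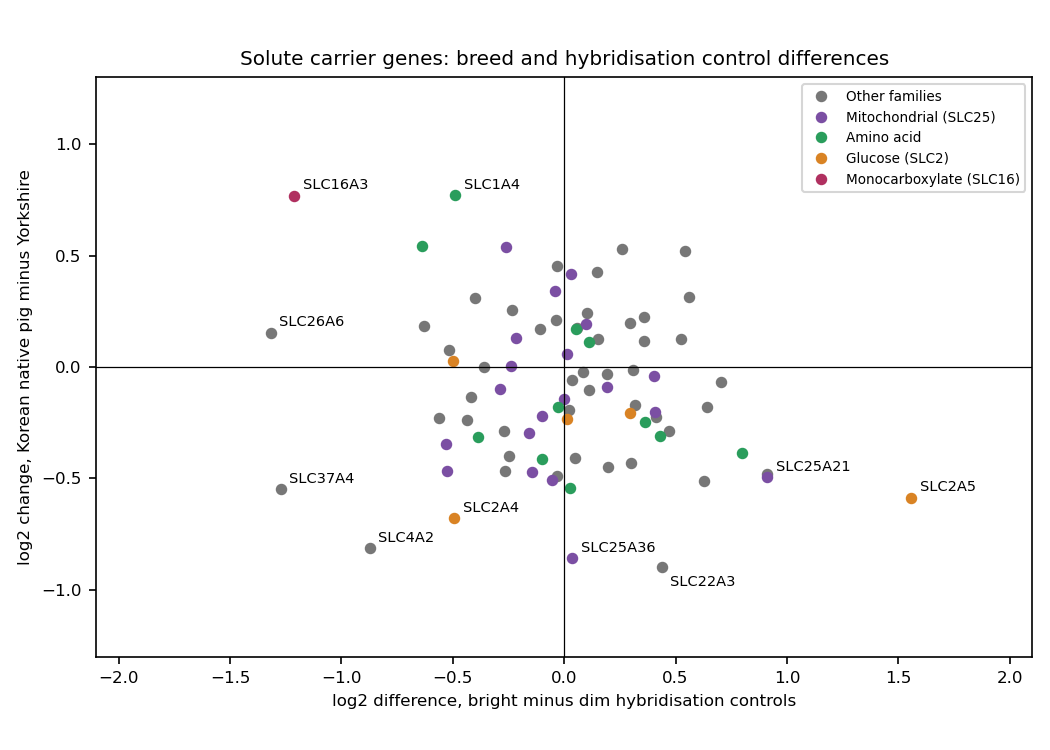
Log2 change between breeds (vertical axis) against the log2 difference between arrays with bright and with dim hybridisation controls (horizontal axis), 1 point for each of the 83 tested solute carrier genes. The points reach from -1.32 to 1.56 along the horizontal axis and from -0.90 to 0.77 along the vertical axis.

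Yorkshire 3 was the highest of the 8 arrays for 22 of the 83 members (26.5%, against 16.9% of all genes) and Korean native pig 2 the lowest for 16 (19.3%, against 14.01% of all genes). These arrays also had the highest and the lowest median signal over all probe sets, 185.3 and 135.8. The direction of a member's change was the same on the bright and the dim arrays alone for 48 members, and it was kept in every fit that left out 1 array for 53 members, of which 34 were below 0 and 19 above. The same counts were not taken over all genes, so whether carriers differ from other genes in them cannot be said. The number of members at an unadjusted p under 0.05, 1 with all arrays, was 5 (6.02%) without Korean native pig 3, where 2.93% of all genes had such a p. It was 3 (3.61%) without Yorkshire 3 or 4, where the shares of all genes were 3.75% and 4.03%. It was 2 (2.41%) without Korean native pig 2 or 4 or Yorkshire 1 or 2, against 2.83% to 4.03% of all genes, and 1 without Korean native pig 1, against 4.37% of all genes. The smallest adjusted p of any member over 22 alternative settings was 0.964 in limma.

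The 37 members too dim to test included carriers that are best known from other organs. Among them were SLC5A1 and SLC15A1, which absorb glucose and peptides in the gut, SLC2A2 and SLC10A1 of the liver, SLC22A2 and SLC22A8 of the kidney and SLC5A5 of the thyroid. The filter did not divide carriers by organ, however. SLC2A3, SLC8A1 and SLC29A1, from the list of carriers known from muscle, were also too dim, and SLC3A1, known from kidney and gut, was tested. Of these 37, 9 stayed below 91.5 on every array and 28 exceeded it on at least 1 array.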

How the data were processed

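Each of 8 porcine Affymetrix arrays came with 1 deposited intensity value per probe set, on a linear scale. Per the submitters' processing notes the software was GCOS 1.3. Summarisation method, scaling target and genome build were not given in the sources at hand, so positions are left out. The trimmed mean signal was between 500.1 and 500.2 on every array.

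Values were taken as log2(signal + 32). The 124 control probe sets and the dimmest 40% of the rest by mean of the log2 values over all arrays (a limit that stands for a signal of 98.6) were left out, and 14399 probe sets were fitted by lmFit and eBayes with an intensity trend and no covariates (limma 3.58.1, R 4.3.3), with Benjamini-Hochberg adjustment over all of them and a threshold of 0.05. The test was checked on simulated data. Among solute carriers, 118 of 120 were found by gene number in the Sscrofa11.1 gene table, and 5 probe sets with several symbols were left out.

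Named carriers were the 8 of smallest p in each direction, the 3 of smallest p in SLC25, SLC2, SLC16 and amino acid carriers, and a list of carriers known from muscle. From each partner list the 2 of smallest p were named. Other genes given a value were chosen after their values were seen. SLC16A1, SLC38A2, SLC6A6, SLC7A5 and SLC8A3 of the muscle list had no probe set named here. The members and lists were chosen with earlier results of these data known. The labels call the arrays biological replicates but name no animal per array, so p-values measure the spread between these samples. For arrays, their number limits the precision. Alternatives covered the pseudocount, normalisation, filter, variance model, probe set choice, blocks and left-out arrays.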

Additional observations from a re-analysis of the deposited data

Results flagged for a closer look

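Among the 40 named genes that were tested, 80 groups of 4 arrays were examined for 1 array far from the others, and 4 were found. Chance gives such a gap in about 1 of 20 groups. The oxoglutarate carrier SLC25A11 read 1890.45 on Yorkshire 4, against 1142.49 to 1212.29 on the other Yorkshire arrays. SLC33A1, whose breeds did not overlap, read 361.947 on Yorkshire 3, against 207.874 to 221.57 on the others. The anion exchanger SLC4A2 read 20.8501 on Korean native pig 1, against 113.075 to 136.11 on the others. LDHA read 98982.5 on Yorkshire 4, against 72235.4 to 76000.1 on the others. Yorkshire 3 and Korean native pig 1 were the arrays of high 3' to 5' ratio, and the part of that ratio in these values was not tested.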

How the results depend on the processing

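In each of the 22 alternative settings 0 solute carriers passed the adjusted threshold. With the replicate block, 1 probe set of 14399 passed it, which was no solute carrier, and 3 carriers (3.61%) had an unadjusted p under 0.05, against 4.15% of all genes in the same fit. The medians of all carriers, SLC25, SLC2, SLC16 and amino acid carriers kept their sign in 110 of 110 alternative values, between -0.19 and -0.02 for all carriers. Of 648 alternative values for 30 named carriers, 612 kept their sign and 36 reversed, and 15 carriers never reversed. These counts include settings that could not reverse a sign. The variance models and the blocks leave every change and median as they were in these balanced groups. The filters leave the change of a named carrier as it was wherever it is still tested. The 10 named partner genes had 2 reversed values, those of VDAC2 and ATP1B4. Reversed values were SLC2A1 at -0.018 with a larger pseudocount, SLC25A6 at -0.0065 with quantile normalisation, SLC25A4 at 0.037 with arrays centred on their median, which adds the same amount to every gene, and SLC7A7 at 0.063 and VDAC2 at 0.11 with the mean of a gene's probe sets. On bright arrays alone they were SLC22A5 at -0.55, SLC25A1 at 0.11, SLC25A4 at 0.060, SLC25A6 at -0.0023, SLC27A1 at 0.0071, SLC2A12 at 0.12, SLC39A1 at -0.12 and SLC3A2 at 0.044. On dim arrays alone they were SLC25A11 at -0.28, SLC25A5 at 0.020, SLC2A1 at -0.042, SLC46A2 at -0.13, SLC6A8 at -0.10 and ATP1B4 at -0.36. Without Korean native pig 1 and Yorkshire 3, of high 3' to 5' ratio, they were SLC25A11 at -0.14, SLC25A4 at 0.060, SLC25A5 at 0.23 and SLC2A1 at -0.25. With 1 array left out at a time, the change ranged from -0.10 to 0.23 for SLC25A11, -0.17 to 0.16 for SLC25A6, -0.20 to 0.026 for SLC27A1, -0.35 to 0.25 for SLC2A1, -0.17 to 0.12 for SLC25A4, -0.20 to 0.084 for SLC25A12 and -0.34 to 0.11 for SLC25A5. The cause of these reversals was not tested. Without the 3 genes that are not carriers, an alternative chosen after seeing the data, the median was -0.10. Deviations of arrays with the same replicate number correlated at -0.04 to 0.31, and 3 of 4 Korean native pig arrays correlated best with the Yorkshire array of their own number. For replicates 3 and 4 these correlations were only 0.10 and 0.05. The highest correlation between the breeds was that of arrays with different numbers, 0.36 for Korean native pig 1 and Yorkshire 3, the arrays of high 3' to 5' ratio. The hybridisation controls of replicates 1 to 4 were 13.42, 12.77, 13.50 and 12.50 (log2) in Korean native pigs. In Yorkshires they were 13.43, 12.81, 13.70 and 12.57, in the same order. The labels state no pairs, so the main fit took the numbers as none. Whether arrays of the same number were handled together is not known, and the replicate block above gives the fit by number.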

Other observations

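Of the 37 solute carriers too dim to test, 2 (5.41%) had breeds that did not overlap, against 42 of all 1434 genes too dim to test (2.93%). They were picked out with their values in view and have no test. SLC10A1, the bile acid carrier of liver, read 4.40, 48.7, 46.4 and 3.04 in Korean native pigs and 96.3, 121.5, 93.7 and 115.8 in Yorkshires. The Yorkshire values lay just above the negative control level of 91.5 and the Korean native pig values below it. SLC1A6, a glutamate carrier of brain, read 12.6 to 33.5 in Korean native pigs and 42.5 to 53.5 in Yorkshires, below the negative control level on all arrays.

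Markers of other cell types that a piece of muscle can hold, and that express solute carriers of their own, had no common direction. Of the tested markers, 3 of 7 of endothelium, 4 of 4 of fibroblasts, 3 of 4 of smooth muscle, 1 of 3 of red cells, 1 of 2 of nerve and 0 of 3 of macrophages were below 0. The nerve marker MBP stood at 1.03 (SE 0.35; adjusted p = 0.999 in limma), with no overlap between the breeds, and S100B at -0.17 (SE 0.25). The summed signal was 4122 to 5107 in Korean native pigs and 4190 to 6116 in Yorkshires for endothelium. For fibroblasts it was 7764 to 12670 and 9964 to 16440, and for macrophages 440.8 to 2744 and 708.7 to 1745. For nerve it was 1070 to 1695 and 567.4 to 1327, for smooth muscle 7092 to 10217 and 8392 to 10756, and for red cells 963.0 to 1265 and 1042 to 1283. Their part in the values of the carriers was not tested.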
